A study of Mus musculus with 4 samples.

Results

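Acetylation of histone H3 at lysine 9 (H3K9ac) was followed at 6 transcription factor genes of blood stem cells, Erg, Fli1, Ets1, Runx1, Mecom and Prdm16. They were taken by symbol from a table of 9615 genes, and all 6 had a row. The measurements are chromatin immunoprecipitation with sequencing (ChIP-seq) of leukemic bone marrow cells from mice, with 1 H3K9ac library per genotype. The tg library came from Gfi1b fl/fl, NUP98/HOXD13 tg mice that carried the Mx-Cre transgene, and the WT library from Gfi1b fl/fl, NUP98/HOXD13 mice without it. Both groups therefore share the floxed Gfi1b alleles and the leukaemia transgene, and WT here means Cre-negative only. Mx-Cre is driven by the interferon-responsive Mx1 promoter, which is active in blood cells and in other tissues. The study design asks how H3K9ac differs when this Cre is present to delete Gfi1b, a repressor gene of the erythroid and megakaryocytic lineages. The number and age of the animals behind each library are not given in the labels. The marrow was not sorted for stem cells, and an erythrocyte lysis step preceded fixation in 1% formaldehyde and 20 min of sonication.

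ERG, FLI1 and ETS1 belong to the ETS family, whose members bind DNA with a core of GGAA. RUNX1 is the DNA-binding subunit of core-binding factor and is required for the emergence of blood stem cells. Mecom encodes EVI1 and the longer MDS1-EVI1 form, and its relative Prdm16 encodes another zinc finger protein that maintains stem cells. ERG, FLI1 and RUNX1 occupy the same enhancers as GATA2, TAL1, LYL1 and LMO2 in blood progenitors, a group known as the heptad. H3K9ac marks active promoters and enhancers, so it reports on the state of a gene's regulatory DNA and not on its RNA.

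Mecom and Runx1 are each known for a pair of promoters, which raises the question of which start a value stands for, so the DNA before both starts is shown, with 1 window each of Erg and Prdm16 for comparison. Each line holds the 250 bases before a RefSeq transcript start on GRCm38.p6, read 5′ to 3′ on the minus strand, on which these 4 genes lie. Capitals mark matches, on either strand, to 4 short core motifs. The motif searched for proteins of the ETS family was CCGGAA. For the RUNX proteins the letters searched were TGTGGT, and for the GATA factors they were AGATAA. The core known from GFI1 and GFI1B is AATCAC, which reads as GTGATT where the match lies on the opposite strand.
Mecom outer start, MDS1-EVI1 form, chr3:30509760-30510009: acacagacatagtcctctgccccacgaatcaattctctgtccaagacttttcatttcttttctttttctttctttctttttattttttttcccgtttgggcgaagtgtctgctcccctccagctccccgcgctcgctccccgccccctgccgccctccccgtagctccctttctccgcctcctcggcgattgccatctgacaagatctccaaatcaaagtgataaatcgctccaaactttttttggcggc
Mecom inner start, EVI1 form, chr3:30013205-30013454: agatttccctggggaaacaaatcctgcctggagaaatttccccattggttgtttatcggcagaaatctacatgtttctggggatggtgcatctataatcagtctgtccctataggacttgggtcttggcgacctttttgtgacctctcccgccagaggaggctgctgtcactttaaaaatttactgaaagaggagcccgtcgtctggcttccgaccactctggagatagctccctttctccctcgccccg
Runx1 distal start, chr16:92826075-92826324: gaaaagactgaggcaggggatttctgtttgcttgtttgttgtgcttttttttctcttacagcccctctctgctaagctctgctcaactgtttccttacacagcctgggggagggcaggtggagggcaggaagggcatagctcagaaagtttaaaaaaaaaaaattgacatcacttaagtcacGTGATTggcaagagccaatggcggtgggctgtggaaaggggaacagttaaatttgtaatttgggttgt
Runx1 proximal start, chr16:92697330-92697579: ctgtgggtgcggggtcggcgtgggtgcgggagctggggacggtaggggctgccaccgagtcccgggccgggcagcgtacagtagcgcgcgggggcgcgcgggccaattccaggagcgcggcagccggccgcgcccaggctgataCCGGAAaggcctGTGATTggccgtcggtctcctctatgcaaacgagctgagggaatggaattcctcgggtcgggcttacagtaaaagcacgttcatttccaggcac
Erg outermost start, chr16:95586594-95586843: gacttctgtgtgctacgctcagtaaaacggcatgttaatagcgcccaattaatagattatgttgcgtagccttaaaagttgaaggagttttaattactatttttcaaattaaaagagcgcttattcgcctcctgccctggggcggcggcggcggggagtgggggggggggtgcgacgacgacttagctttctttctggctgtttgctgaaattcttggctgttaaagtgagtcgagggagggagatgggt
Prdm16, chr4:154636874-154637123: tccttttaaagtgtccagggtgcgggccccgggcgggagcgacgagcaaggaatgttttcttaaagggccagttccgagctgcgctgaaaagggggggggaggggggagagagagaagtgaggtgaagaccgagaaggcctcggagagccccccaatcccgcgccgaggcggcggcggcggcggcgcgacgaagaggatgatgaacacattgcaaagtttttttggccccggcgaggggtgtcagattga
The RefSeq table matched 4 of the 6 genes, with 8 windows in all, and Fli1 and Ets1 had no entry in it. The proximal window of Runx1 held 1 ETS and 1 GFI match that do not overlap, and its distal window held 1 GFI match. Another Erg window, at chr16:95459349-95459598, held 1 GATA match, and the other 5 windows held none of the 4 motifs. Among all 32851 windows of this length, 12% held the ETS motif, 14.0% the RUNX motif, 9.99% the GATA motif and 9.14% the GFI motif on either strand. A match is a string of letters and not a bound site. The proximal Runx1 window was 67.6% G and C with 27 CpG dinucleotides and that of Prdm16 62.4% with 22, against a median over all windows of 52.4% and 6. The distal Runx1 window differed from the proximal, with 45.6% G and C and 2 CpG. At Mecom the outer window had 50.8% and 14 CpG and the inner window 50.4% and 8.

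The values rest on 163712 reads in the tg library and 309649 in WT, which the deposited values scale to 1000000, so that 1 read is worth 6.11 scaled reads in tg and 3.23 in WT. A probe is a region in which the authors counted reads. The sources used here give no probe positions, so a probe cannot be placed at a promoter, intron or exon. Across all genes the median log2 ratio of tg over WT was 0.045 and its SD over genes 1.27. Ratios of summed reads are given with an exact 95% interval for counting error only, and log2 ratios of deposited values without one. With 1 library per genotype there is no replicate spread and no test, and "higher" and "lower" describe these 2 libraries. The rabbit IgG libraries were not analysed here. At Gfi1b itself the tg library held 108 reads and WT 12 over 4 probes, a 17.0-fold higher scaled level (9.36 to 34.0), which does not check the deletion because the probes cannot be placed.

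Of the 6 genes, Ets1 and Prdm16 were at least 2-fold higher in tg, where 16.5% of all genes were, and Erg, Fli1 and Mecom were at least 2-fold lower, where 15.8% were. Runx1 was on neither side. The same 2 and 3 genes passed when the interval of the summed reads also had to exclude 1, a rule met by 10.5% of 9551 genes on the higher side and 10.2% on the lower side. For Ets1 and Prdm16 this lends no support, because the smallest read count in the table already fixes their direction, as described with their values. The 3 lower genes had 105 to 340 reads over both libraries, and the 2 higher genes had 11 and 10. In tg alone the lower genes had few reads too, 10 at Fli1, 17 at Mecom and 48 at Erg, against 8 each at Ets1 and Prdm16.

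**Figure D1:**
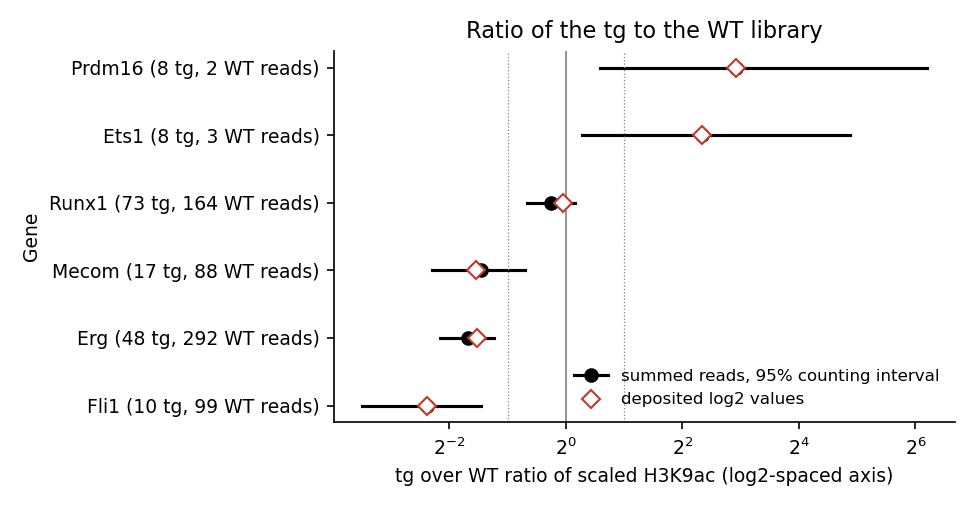
Ratio of the tg to the WT library for the 6 genes, on a log2-spaced axis. Black points give the ratio of reads summed over probes with its 95% counting interval, red diamonds the ratio from the deposited log2 values, and dotted lines mark 2-fold. Fli1, Erg and Mecom lie left of the 2-fold line, Runx1 lies near equality, and Ets1 and Prdm16 lie to the right with wide intervals.

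Erg encodes an ETS factor required for stem cell self-renewal (chr16:95359169-95586593, ENSMUSG00000040732). Its 4 probes held 37, 9, 2 and 0 reads in tg, in order of height, and 251, 21, 11 and 9 reads in WT. In scaled reads these were 226, 55.0, 12.2 and 0 in tg, against 811, 67.8, 35.5 and 29.1 in WT. The tallest WT probe exceeded every tg probe, while the lower probes of the libraries overlapped in level. The deposited log2 means were 4.92 in tg (SD over probes 2.38) and 6.44 in WT (SD over probes 2.21), a difference of -1.52. Summed over probes, Erg had 48 reads in tg and 292 in WT, a 3.22-fold lower scaled level (2.36 to 4.46).

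Most of the Erg signal lay at a single probe in both libraries. That probe held 77.1% of the tg reads (62.7 to 88.0%, exact Clopper-Pearson interval) and 86.0% of the WT reads (81.4 to 89.7%), if the tallest probe is the same in both. It was 3.59-fold lower in tg (2.53 to 5.21). The other 3 probes together held 11 reads in tg and 41 in WT, 1.97-fold lower with an interval of 0.995 to 4.25 that includes 1. Because probes can be matched between libraries by height only, all 24 possible pairings were gone through. In each of them 2 or 3 probes were at least 2-fold lower and at most 1 was 2-fold higher. Much of this was fixed before pairing, since the tallest WT probe (811) lay more than 2-fold above every tg probe (at most 226). The tg probe with 0 reads counts as 2-fold lower in any pairing because 0 was entered as 0.9 of a read. Of the 117 genes with 4 probes, 25.6% were at least 2-fold lower and 16.2% had a lower log2 ratio than Erg.

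Fli1 encodes the ETS factor nearest in sequence to ERG and drives megakaryocytic genes (chr9:32422208-32541389, ENSMUSG00000016087). Its only probe held 10 reads in tg and 99 in WT, which is 61.1 scaled reads in tg and 320 in WT. The deposited log2 values were 5.93 in tg and 8.32 in WT, and the scaled level was 5.23-fold lower in tg (2.73 to 11.3). Of the 516 genes that also had 1 probe and at least 100 reads, 65 were at least 2-fold lower (12.6%) and 13 had a lower ratio than Fli1 (2.52%).

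Ets1, a gene best known from lymphocytes and endothelium, is the neighbour of Fli1 on the same chromosome (chr9:32696042-32757820, ENSMUSG00000032035). Its single probe held 8 reads in tg and 3 in WT, which is 48.9 scaled reads in tg and 9.69 in WT. The deposited log2 values were 5.61 in tg and 3.28 in WT, a ratio of 5.04 (1.21 to 29.5). In WT its reads equalled the 3-read floor used here for a count of 0. The table sets a limit on this ratio, since each gene with 1 probe has at least 9 reads over both libraries. With 3 WT reads a gene must then hold at least 6 tg reads to be listed, which puts its ratio at 3.78 or more. All 260 genes with 1 probe and at most 3 WT reads were at least 2-fold higher in tg, so the direction at Ets1 follows from its low WT count. Whether a like minimum per probe limits genes with more probes and few reads in 1 library was not tested. Such genes named in the text include Gfi1b, Ets2, Tal1, Runx3 and Dnmt3a.

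**Figure D2:**
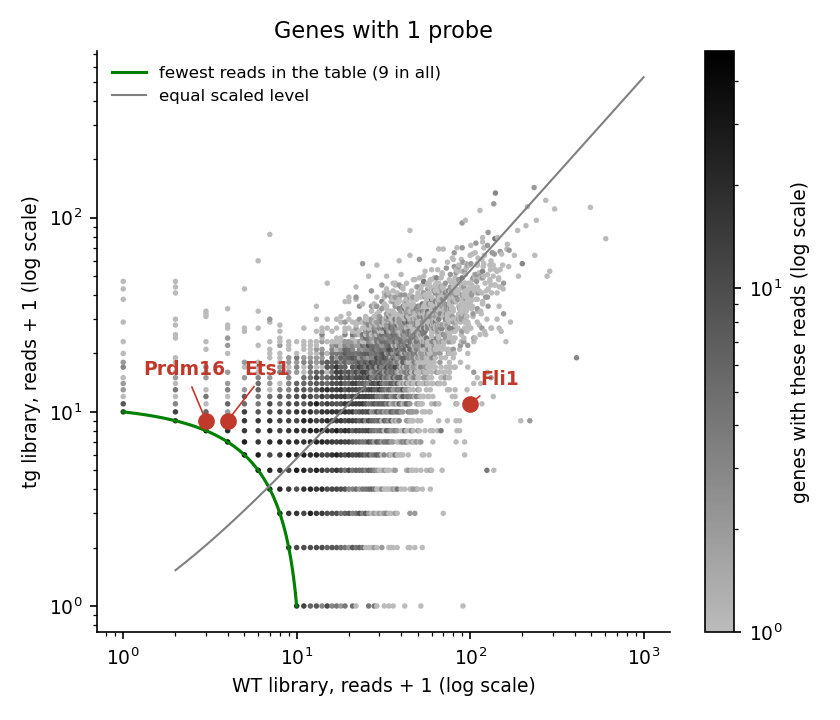
Reads in the tg library (vertical axis, reads + 1, log scale) against reads in the WT library (horizontal axis, reads + 1, log scale) for the 7423 genes with 1 probe. Grey shades give the number of genes at each pair of counts, the green line the 9 reads below which no gene is listed, and the grey line equal scaled levels. Prdm16 and Ets1 lie next to the green line and Fli1 lies far below the grey line.

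Runx1 spans chr16:92601467-92826066 (ENSMUSG00000022952) and has the most probes of the 6 genes. Its 6 probes held 37, 10, 9, 9, 5 and 3 reads in tg, in order of height, and 79, 47, 15, 8, 8 and 7 reads in WT. In scaled reads these were 226, 61.1, 55.0, 55.0, 30.5 and 18.3 in tg, against 255, 152, 48.4, 25.8, 25.8 and 22.6 in WT. The ranges of the libraries overlapped almost entirely. The deposited log2 means were 5.74 in tg (SD over probes 1.22) and 5.79 in WT (SD over probes 1.49), a difference of -0.05. Summed reads were 73 in tg and 164 in WT, a ratio of 0.842 with an interval of 0.630 to 1.12 that includes 1.

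The tallest Runx1 probe held 50.7% of the gene's reads in tg and 48.2% in WT, whereas the probe of second height differed more, with 61.1 scaled reads in tg and 152 in WT. The tallest probe had a ratio of 0.886 (0.583 to 1.32) and the other 5 probes together 0.801 (0.527 to 1.20), on 36 reads in tg and 85 in WT. Over all 720 ways to pair the probes between libraries, 1 to 3 of them were lower by 2-fold or more and 1 to 4 were higher by that much. Probe positions would be needed to compare the distal with the proximal start shown above. Of the 28 genes with 6 probes, 14 were higher and 4 lower by the 2-fold rule.

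**Figure D3:**
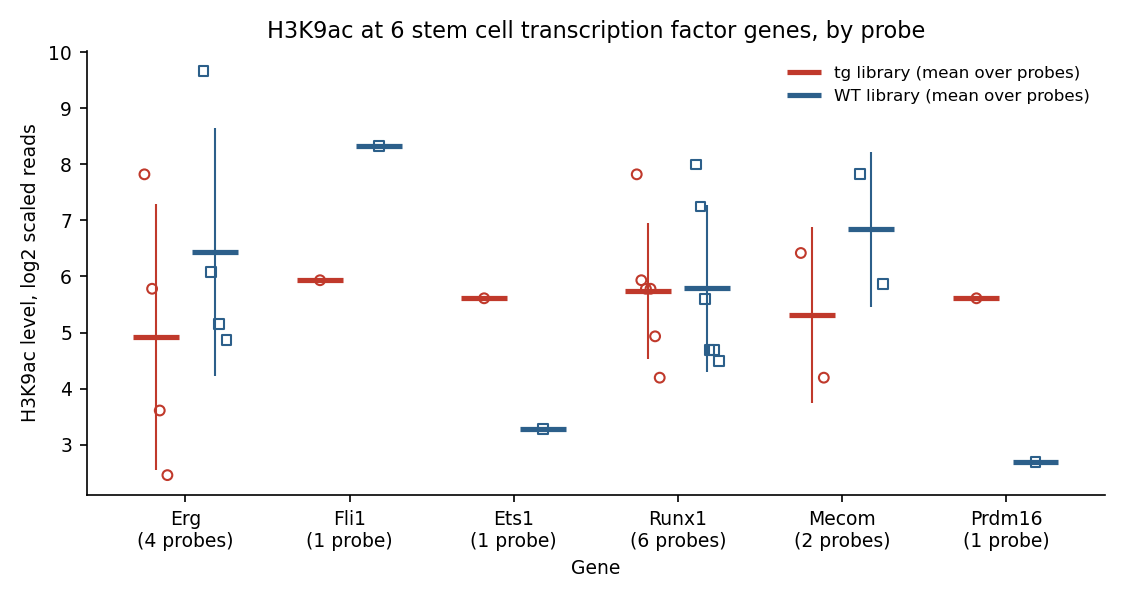
H3K9ac level of each probe in log2 scaled reads (vertical axis) for the 6 genes, with tg in red circles left of WT in blue squares. Thick bars are the deposited means over probes and thin lines their SD over probes. Erg and Mecom have lower means in tg, 4.92 and 5.31, against 6.44 and 6.84 in WT, and the Runx1 means of 5.74 in tg and 5.79 in WT nearly coincide.

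Mecom, the EVI1 locus, is the longest of the 6 genes (chr3:29951299-30548008, ENSMUSG00000027684). Its 2 probes held 14 and 3 reads in tg and 70 and 18 reads in WT, or 85.5 and 18.3 scaled reads in tg and 226 and 58.1 in WT. The taller tg probe lay between the WT probes in level and the lower tg probe lay below both. The deposited log2 means were 5.31 in tg (SD over probes 1.57) and 6.84 in WT (SD over probes 1.39), a difference of -1.53. Summed reads were 17 in tg and 88 in WT, a 2.74-fold lower level (1.62 to 4.91). The taller probe was 2.64-fold lower (1.48 to 5.08), and the other was 3.17-fold lower with an interval of 0.926 to 16.8 that includes 1. Among 1572 genes with 2 probes, 13.2% were at least 2-fold lower and 7.12% had a lower log2 ratio than Mecom.

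The taller Mecom probe had the counts of a smaller gene model in the locus. Gm16722, a gene model inside Mecom at chr3:30012379-30053185, has 1 probe with 14 reads in tg and 70 in WT, the same as the taller Mecom probe. It is the only 1 of 7423 genes with 1 probe that has these counts. Gm16722 spans the inner Mecom start, which gives rise to the EVI1 form, whereas the outer start lies 457 kb away from it. If the shared counts mean a shared probe, the taller probe lies in or next to Gm16722 and not at the outer start.

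Prdm16 spans chr4:154316125-154636873 (ENSMUSG00000039410) and had 8 reads in tg and 2 in WT at its only probe. These are 48.9 scaled reads in tg and 6.46 in WT, or deposited log2 values of 5.61 in tg and 2.69 in WT. The ratio was 7.57 with an interval of 1.51 to 73.1. As at Ets1, the minimum of the table bears on this value, because a gene with 2 WT reads needs at least 7 tg reads to be listed and then has a ratio of at least 6.62. Among the 741 genes with 1 probe and 9 to 12 reads in all, 43.6% were higher in tg by the 2-fold rule and 19.0% were lower. Among the 516 with at least 100 reads, 0.775% were higher and 12.6% lower.

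The levels of the 6 genes were compared with each other per length of gene. In scaled reads per 100 kb, the order in tg was Runx1 with 199 (156 to 250, exact Poisson interval), Erg with 129 (95.1 to 171), Ets1 with 79.1 (34.1 to 156), Fli1 with 51.3 (24.6 to 94.3), Mecom with 17.4 (10.1 to 27.9) and Prdm16 with 15.2 (6.58 to 30.0). In WT it was Erg with 415 (368 to 465), Fli1 with 268 (218 to 327), Runx1 with 236 (201 to 275), Mecom with 47.6 (38.2 to 58.7), Ets1 with 15.7 (3.23 to 45.8) and Prdm16 with 2.01 (0.244 to 7.27). Per length of gene, Runx1 thus stood first in tg and Erg first in WT. The reads come from probes only and not from the whole gene, so this order depends on gene length and number of probes. By the deposited log2 values the order was another. Fli1 was then the highest of the 6 in both libraries (5.93 in tg, 8.32 in WT), and Erg was the lowest in tg (4.92). The intervals of each pair of neighbours in the tg order per 100 kb overlapped. In the WT order those of Erg and Fli1 and those of Runx1 and Mecom did not, and the other 3 pairs overlapped.

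The other genes of the ETS family were mostly close to equality, with PU.1 as the main exception. The list of 26 ETS genes had 13 with a probe, of which 1 was higher and 5 were lower by the 2-fold rule, and the median log2 ratio was -0.14. Without Erg, Fli1 and Ets1, 0 of 10 were higher and 3 were lower. Spi1, which encodes PU.1 and directs myeloid and B cell fates, had 12 reads in tg and 118 in WT, 5.20-fold lower (2.87 to 10.3). Etv6, which encodes a repressor needed by adult stem cells, had a deposited log2 ratio of -1.06 over 7 probes. Ets2 had 4 reads in tg and 16 in WT, with a log2 ratio of -1.07 and an interval of the summed ratio of 0.115 to 1.47 that includes 1. The remaining 7 had log2 ratios between -0.28 (Elk4) and 0.46 (Elf1).

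In the RUNX and core-binding factor list, 10 of 11 genes had a probe, with a median of 0.29. By the 2-fold rule 1 was higher and 2 were lower, against 16.5% and 15.8% of all genes. Runx3, which acts in T and NK cells and in myeloid cells, had 2 reads in tg and 55 in WT over 3 probes, 14.5-fold lower (3.84 to 123). With so few tg reads its direction may be limited by the table minimum, which was not tested. Cbfb, the partner that strengthens DNA binding of every RUNX protein, had 9 reads in tg and 40 in WT, 2.35-fold lower (1.12 to 5.51). Runx2, the bone factor, had a log2 ratio of 0.23. The coactivator gene Crebbp was higher by its deposited mean (log2 ratio 2.26) but had 52 reads in tg and 67 in WT, a summed ratio of 1.47 (1.00 to 2.14).

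The PRDM list, which holds Mecom and Prdm16, had 8 of 15 genes with a probe and a median of -0.00. Of these, 1 was higher (Prdm16, fixed by the 9-read minimum) and 2 were lower, against 16.5% and 15.8% of all genes. Beside Mecom the lower gene was Prdm11, with 5 reads in tg and 36 in WT, 3.81-fold lower (1.49 to 12.4). Among 9 genes for corepressors and methyltransferases that work with EVI1, 7 had a probe, with a median of 0.11. Of these, 1 was higher and 1 was lower, near the 16.5% and 15.8% of all genes. The lower gene was Dnmt3a, a DNA methyltransferase that binds EVI1, with 4 reads in tg and 42 in WT, 5.55-fold lower (2.01 to 21.3). Hdac1, a histone deacetylase, was higher with 14 reads in tg and 12 in WT, a ratio of 2.21 (0.947 to 5.22) whose interval includes 1.

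The heptad divided between its members. Erg and Fli1 were lower in tg and Runx1 was near equality, while of the other genes of the heptad complexes (Tal1, Lyl1, Lmo2, Gata2, Ldb1 and Tcf3) 4 of 6 were at least 2-fold higher and 0 were lower, with a median of 1.51, against 16.5% higher and a median of 0.045 over all genes. Tal1, Lmo2 and Ldb1 have 6 probes each, and 14 of the 28 genes with 6 probes were higher. Without Ldb1 and Tcf3, which are partners outside the heptad itself, 2 of 4 were higher. Tal1, a factor of stem cells and of the erythroid lineage, had 171 reads in tg and 22 in WT over 6 probes, 14.7-fold higher (9.40 to 24.1). Lmo2, which bridges TAL1 and GATA factors, had a deposited log2 ratio of 3.08, and Ldb1, its binding partner, was 2.56-fold higher (1.61 to 4.11). From summed reads, which were recovered for 5 of these genes, 2 were higher, since Tcf3 then had a ratio of 1.54 (0.928 to 2.55) against a deposited log2 ratio of 1.32. Gata2, with 22 reads in tg and 34 in WT, had a ratio of 1.22 (0.682 to 2.15), and Lyl1 0.958 (0.638 to 1.42).

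Among 16 other stem cell factor genes, 11 had a probe, with a median of 0.66. Of these, 4 were higher and 2 were lower, against 16.5% and 15.8% of all genes. Higher were Tcf7l2, a WNT pathway factor (24 reads in tg, 3 in WT, 15.1-fold, 4.60 to 78.5), Zfpm1, which encodes the GATA1 cofactor FOG1 (119 reads in tg, 23 in WT, 9.79-fold, 6.22 to 16.0), the HOX cofactor gene Meis1 (7 reads in tg, 2 in WT) and Nfe2, an erythroid and megakaryocytic factor. Nfe2 had a deposited log2 ratio of 1.31 but 103 reads in tg and 99 in WT, a summed ratio of 1.97 (1.48 to 2.62) that is short of 2-fold. Meis1 shares with Prdm16 the 2 WT reads that fix its direction. Tcf7l2, with 3 WT reads over 2 probes, may be limited in the same way, which was not tested. Of 12 surface and signalling genes of stem cells only 4 had a probe, and 3 of them were lower, against 15.8% of all genes. Cd34, a surface marker of progenitors and endothelium, had 0 reads in tg and 13 in WT, at least 2.29-fold lower against a floor of 3 tg reads. With 0 tg reads a gene with 1 probe is listed only through its WT reads, so its direction is fixed by the 9-read minimum of the table. Angpt1, the gene of a ligand for the receptor TIE2, was 3.54-fold lower (1.81 to 7.72) and the stem cell factor receptor gene Kit 2.11-fold lower (0.842 to 6.33).

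Of 17 megakaryocyte genes that ETS and RUNX factors are known to act on, 3 had a probe and 2 were lower by the deposited values. Plek, a platelet and leukocyte signalling gene, had 10 reads in tg and 83 in WT, 4.39-fold lower (2.27 to 9.49), and Selp had 0 reads in tg and 10 in WT. Selp passed 2-fold with 0 entered as 0.9 of a read, and against the floor of 3 reads it was at least 1.76-fold lower. Like Cd34 it is listed only through its WT reads. Over these 8 lists without the 6 genes, 10 of 56 genes were higher by the 2-fold rule (17.9%) and 14 lower (25.0%), their median log2 ratio being 0.15, against 16.5%, 15.8% and 0.045 over all genes.

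**Figure D4:**
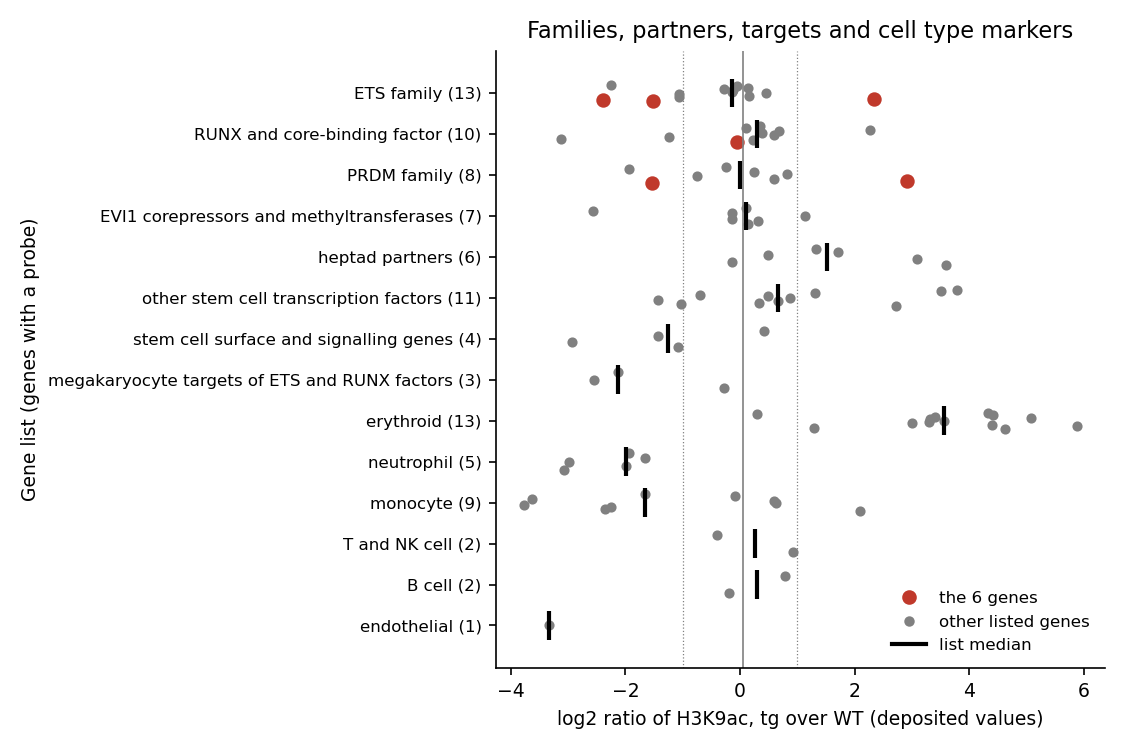
Log2 ratio of tg over WT (horizontal axis, deposited values) for the genes of each list that have a probe, with their number in brackets. Red points are the 6 genes, grey points other listed genes and black bars list medians, the solid line marks the median of all genes (0.045), and dotted lines mark 2-fold. The heptad partners (median 1.51) and the erythroid markers (3.56) lie to the right, and the neutrophil (-1.99) and monocyte (-1.67) markers to the left.

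Markers of blood cell types differed between the same libraries. Of 20 erythroid genes 13 had a probe, 12 were higher and 0 were lower (median log2 ratio 3.56), against 16.5% and 15.8% of all genes. Their summed scaled levels were 2840 in tg and 520 in WT. Epor, Alas2 and Rhag, at 0 in WT, are listed only through their tg reads. Gata1 (13 reads in tg, 1 in WT) and Hba-a1 (17 in tg, 4 in WT) have 1 probe each. At these WT counts the 9-read minimum of the table fixes their 2-fold call too. Klf1, better covered with 40 reads in tg and 31 in WT at 1 probe, was 2.44-fold higher (1.49 to 4.04). Tfrc, the erythroid gene within 2-fold, had 53 reads in tg and 82 in WT, a ratio of 1.22 (0.849 to 1.75). The neutrophil list had 5 of 17 genes with a probe, all 5 lower, against 15.8% of all genes, with 9 reads in tg and 97 in WT. Prtn3 (2 reads in tg), Cebpa (1) and Csf3r (2) have 1 probe each, so the 9-read minimum fixes their direction. Mpo (1 in tg, 31 in WT) and Lyz2 (3 in tg, 24 in WT) have 2 probes each and may be limited likewise, which was not tested. Of 13 monocyte genes 9 had a probe, 5 were lower and 1 was higher, against 15.8% and 16.5% of all genes. Together they had 83 reads in tg and 713 in WT, and Spi1 is in this list too. Irf8 gave most of the WT reads, with 29 in tg and 407 in WT over 4 probes, 7.42-fold lower (5.09 to 11.2). Ly86 had 2 reads in tg and 83 in WT over 2 probes. The minimum also fixes the direction of the higher gene, Csf1r (9 reads in tg, 4 in WT). It does so for the lower genes Ms4a6c (2 in tg, 47 in WT) and F13a1 (3 in tg, 18 in WT), all with 1 probe. Of 15 T and NK cell genes and 13 B cell genes, 2 each had a probe, and none of these 4 was 2-fold apart. Pecam1, an endothelial and haematopoietic gene, was the only 1 of 10 endothelial genes with a row. It had 1 read in tg and 19 in WT at 1 probe, a direction that the 9-read minimum fixes. Uty (0 reads in tg, 28 in WT) and Ddx3y (1 in tg, 22 in WT), which are Y-linked and not cell type markers, also differed. With 1 probe each, their direction too is fixed by the 9-read minimum, and a difference in the sex of the animals was not tested. The part of the cell type and Y-linked differences in the results at the 6 genes was not tested. In bulk marrow fewer cells with the mark and less of the mark per cell cannot be told apart.

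Within 500 kb of each gene the difference was not shared by all neighbours. Fli1 and Ets1 lie 155 kb apart and differed in opposite directions, the lower Fli1 on 99 WT reads and the higher Ets1 on 3. Erg had 3 neighbours in the table, of which Ets2, 115 kb away, was lower on few reads, and Psmg1 (log2 ratio 0.22) and Brwd1 (0.75) were within 2-fold. Around Runx1, Clic6 and 2410124H12Rik had the same 7 reads in tg and 3 in WT and were 4.41-fold higher (1.01 to 26.4), a direction that their 3 WT reads fix as at Ets1, while Rcan1 (-0.15) and Fam165b (-0.08) were near equality. Apart from Gm16722, 1 of 5 neighbours of Mecom was lower, the receptor gene Gpr160 308 kb away with 2 reads in tg and 19 in WT. With 1 probe and 2 tg reads, its direction is fixed by the 9-read minimum of the table. Mynn, the nearest at 54.1 kb, had a log2 ratio of -0.12.

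Prdm16 had 12 neighbours in this range, with a median log2 ratio of 0.74. By the 2-fold rule 4 of them were higher and 1 was lower, against 16.5% and 15.8% of all genes. The neighbours may not be independent. Dffb and BC046331 had the same 11 reads in tg and 37 in WT, and Tprgl lies within Wdr8, so a probe may count more than once. The best covered of the higher genes was Tnfrsf14, a receptor gene of the tumour necrosis factor family 285 kb away, with 49 reads in tg and 25 in WT, 3.71-fold higher (2.25 to 6.26). Tprgl was 2.07-fold higher (1.24 to 3.49). Trp73 had 5 reads in tg and 4 in WT, a ratio of 2.36 (0.509 to 11.9) whose interval includes 1. That is the smallest ratio a gene with 1 probe and 4 WT reads can have in the table, so its 2-fold call was fixed. 1190007F08Rik had 10 reads in tg and 0 in WT, so that it is listed only through its tg reads. The lower gene was Rer1, with 6 reads in tg and 25 in WT.

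**Figure D5:**
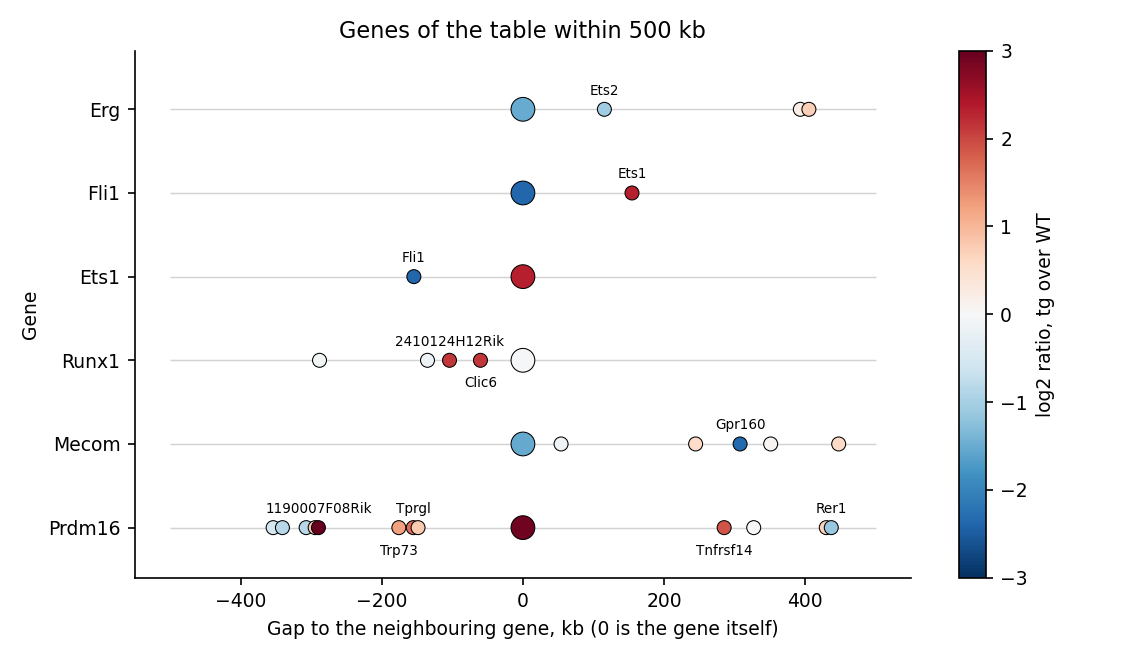
Genes of the table within 500 kb of each of the 6 genes, by their gap in kb (horizontal axis, 0 is the gene itself, drawn large). Colour gives the log2 ratio of tg over WT, with red higher in tg and blue lower in tg. Genes that overlap are left out and neighbours at least 2-fold apart are named, such as Ets1 (2.33) beside Fli1 (-2.39).

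The genes most like each of the 6 in their pair of log2 values were searched among named genes with the same number of probes, over 2 libraries. Nearest to Erg were Kdm2b, at a distance of 0.083 log2 units, and Glipr1 at 0.27, of 108 genes. For Fli1 they were Lbh, with 10 reads in tg and 95 in WT, and Anp32a, with 10 in tg and 116 in WT, of 6437 genes. Tle3 (0.15) and Tbc1d5 (0.18) were nearest to Mecom among 1401 genes, and Rreb1 (0.43) and Slc22a14 (0.49) to Runx1 among 25. At the low counts of Ets1 and Prdm16 the pattern was not specific, since 5 genes, among them Abhd1 and Atat1, had exactly the values of Ets1 and 15, among them Dmxl2 and Esr2, those of Prdm16.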

How the data were processed

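ChIP-seq of H3K9ac was measured in leukemic bone marrow, in 1 tg and 1 WT library. The submitters' processing notes name BWA, SAMtools, FastQC and CASAVA 1.8.2, with mm10 and GRCm38 as the build. Not given in the sources used here are the placement of probes, the treatment of duplicates and the program that wrote the table. Per the file headers, the authors' deposited log2 values are a mean and a standard deviation over the probes of each gene, with the number of probes beside them. Columns were matched to samples by library code, and no column belonged to another sample.

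Reads per probe were recovered as the only whole numbers that give both the mean (within 2e-06) and the standard deviation (within 5e-06), with 0 reads entered as 0.9 of a read and totals scaled to 1000000. This worked for 9551 genes (99.3%), all 6 genes included, and for 100% of genes with 1 probe within 0.01 of a read. The recovery was tested on simulated data. For genes with more than 6 probes only the log2 values were used.

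Ratios are scaled summed reads in tg over WT, with exact conditional binomial (Clopper-Pearson) 95% intervals. Intervals and floors cover counting error only, since without molecular identifiers several reads can stem from 1 molecule. For a library with 0 reads, 3 reads were put in as a floor, and the fold is then given as a lower bound. A comparison with IgG was planned and not run. The 2-fold rule is one of size. From each list up to 3 genes with the largest difference past 2-fold were named, with the 2 nearest patterns per gene. All neighbours at least 2-fold apart were named, while some neighbours of Mecom and Prdm16 within 2-fold were left unnamed. Other genes named in the text were picked with their values known. The 6 genes, the 14 lists (199 genes, 94 entries with a row, 4 matched by an older symbol) and the alternatives were chosen with earlier results of these data known. Python 3.11.15, NumPy 2.4.6, pandas 2.3.3 and SciPy 1.17.1 were used.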

Additional observations from a re-analysis of the deposited data

How the results depend on the processing

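The log2 ratios of the 6 genes kept their sign in all 27 alternatives (reads summed over probes, the tallest probe, 2 other scalings, 1 added read, and, chosen after seeing the data, summed reads without the tallest probe). Of these, 26 stayed on their side of 2-fold and 1 moved, Erg without its tallest probe, at -0.98. Little of this is a test of stability, because the scalings move every gene alike, the genes with 1 probe have no alternative on how probes are combined, and the 9-read minimum of the table fixes the direction of Ets1 and Prdm16. At a 3-fold rule 1 of the 6 genes (Fli1) was lower in place of 3, with Erg at 2.87-fold and Mecom at 2.90-fold by the deposited values. Among the genes of the 6 with at least 20 reads, a subset chosen after seeing the data, 0 were higher in place of 2, and 3 were lower. The share of all genes at least 2-fold higher was 10.2% among genes at or above the median level and, in subsets added after seeing the data, 43.6% among genes with 1 probe and 9 to 12 reads and 0.775% among those with at least 100 reads, against 16.5% over all. By summed reads 6 of the listed genes were higher in place of 10, as fewer genes have recovered reads and probes are weighted by their reads. No paired analysis was possible because each genotype has 1 library, and for the same reason no replicate could be left out. For genes with 0 reads, levels up to 18.3 scaled reads in tg and 9.69 in WT (3 reads) cannot be seen. Shifting to the median gene moves every log2 ratio by 0.045.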
